A study of Mus musculus with 24 samples.

Results

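Gene expression was followed in cultured embryonic cortical neurons of mice that had AcPb as their only accessory chain for the IL-1 receptor, after IL-1b at 10 ng/ml for 4 h and after a control stimulus of 4 h. The 3 arrays labelled as AcPb neurons with IL-1b were set against the 3 labelled as AcPb neurons with the control stimulus, and these 6 arrays were chosen by their labels out of 24. All cells, controls included, had the genotype Il1rap-/-, so they lacked the gene that encodes both AcP and AcPb, and they were then made to express AcPb, AcP, AcP+AcPb or CD25. Each of the other 3 arms also had 3 IL-1b and 3 control arrays. CD25 neurons, which were given a chain of the IL-2 receptor and no accessory chain, served as the arm in which IL-1b has no accessory protein to act through. For the vector or promoter that drove the introduced chains, for the embryonic stage and for whether the 3 samples of a group were separate cultures, the labels give nothing. The p-values therefore speak only of how far arrays of one label spread, and part of that spread may be technical.

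IL-1b binds its receptor IL-1R1, and the pair then recruits the accessory protein AcP, which brings in the adaptor MyD88 and switches on NF-kB and MAP kinases. AcPb is a splice form of the same gene that is made in the nervous system. Its intracellular part differs, and it joins the receptor without starting the usual inflammatory signal. The comparison addresses what IL-1b does to the transcripts of a neuron whose receptor can pair only with AcPb.

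The AcPb arrays were alike in quality. Their medians lay between 58 and 62.8 intensity units, each correlated with the others of its group at a mean of 0.988 to 0.991, and the ratio of the 5′ to the 3′ actin probe sets lay between 0.794 and 0.815 with IL-1b and between 0.768 and 0.823 in controls. Over bright genes the SD of log2 values had a median of 0.066 in AcPb neurons with IL-1b and 0.073 in AcPb controls, and it was widest in the AcP controls, at 0.138. A gene was called bright where its brightest probe set averaged at least 100 units over all arrays. Of 31 neuron markers 30 were bright, but so were 18 of 19 astrocyte markers, among them the water channel gene Aqp4 and the filament gene Gfap, and 7 oligodendrocyte markers. Transcripts of glia were thus measured beside those of neurons, while 1 of 18 microglia markers was bright, the receptor gene Csf1r. Il1rap, the gene deleted in these mice, read 117.5, 100.2 and 114.7 units in AcPb neurons with IL-1b, against 131.9, 125.8 and 121.4 in AcPb controls. All IL-1b values lay below all control values, by -0.17 ± 0.07 log2 units (± is limma's SE throughout, 3 arrays a group), and limma did not call the difference (adjusted p = 0.5). The 4 other Il1rap probe sets stood between -0.04 and 0.26. The highest of them, a dim one at 0.26 ± 0.12, had every IL-1b array above every control. What the Il1rap probe sets detect of the deleted allele or the introduced chain was not tested. Il1r1, the gene of the signalling receptor, lay between -5.84 and 0.89 units on the 6 arrays, too dim to be told from absent.

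Most inflammatory genes stayed near their control level in AcPb neurons, and none was called. Cxcl10, a chemokine that attracts T cells, read 19.65, 21.6 and 18.7 units with IL-1b, against 16.2, 16.7 and 4.76 in controls. Ccl2, which attracts monocytes, read 48.1, 64.5 and 58.1 with IL-1b, against 72.3, 52 and 62.8 in controls. Nfkbia, a bright gene whose product holds NF-kB in the cytoplasm, read 2722, 2558 and 2602 with IL-1b, against 2663, 2449 and 2435 in controls. The ranges of Ccl2 and Nfkbia overlapped between the groups, and those of Cxcl10 were narrowly separated at a level close to background. On the log2 scale, after values below 0 were set to 0 and 16 was added, the changes were 0.36 ± 0.33 for Cxcl10, -0.10 ± 0.21 for Ccl2 and 0.06 ± 0.08 for Nfkbia.

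**Figure D1:**
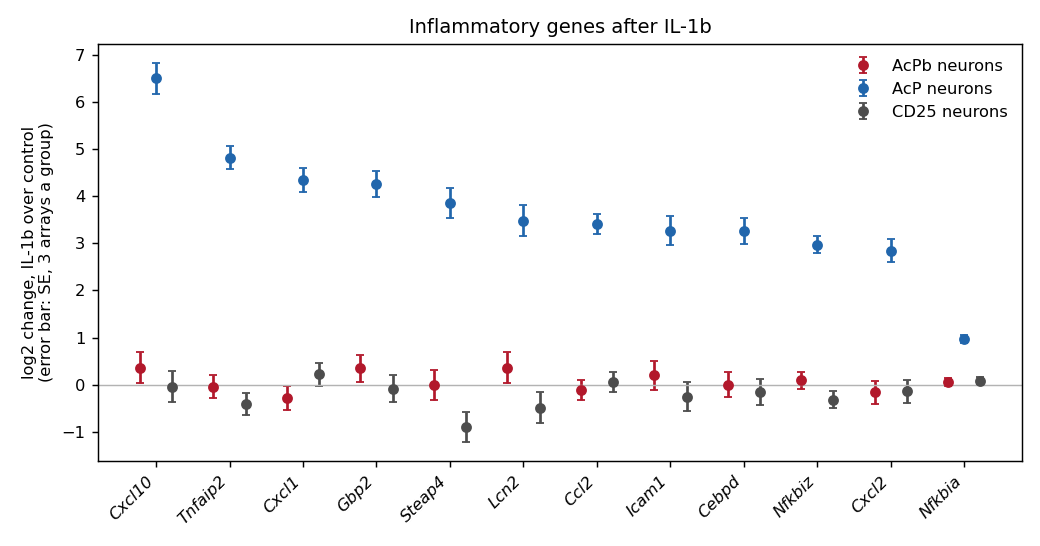
Log2 change after IL-1b (vertical axis) of 12 inflammatory genes in AcPb, AcP and CD25 neurons, with limma's SE as error bars and 3 arrays a group. The AcPb values lie between -0.28 and 0.36, while those of AcP neurons lie between 0.97 and 6.50.

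The difference between the AcPb and the AcP response was itself tested, since these arms share no array. It was called for all 12 genes, which had been picked for their response in AcP neurons, so their side of the comparison was known beforehand. Cxcl10 differed by -6.14 ± 0.46 log2 units (limma adjusted p = 4e-06) and Nfkbia by -0.91 ± 0.11 (limma adjusted p = 0.00082). Over all probe sets limma called 50 such differences, or 0.111%, of which 46 were lower in AcPb neurons. Against CD25 neurons limma called 1 difference over all probe sets (0.00222%), with 3911 (8.68%) at an unadjusted p under 0.05, and none of the 12 genes passed. That arm started from other levels. Cebpd, a transcription factor gene of the acute phase, averaged 77 ± 10.1 units with IL-1b and 76.9 ± 4.3 in controls of the AcPb arm (SD, n = 3 each), against 767 ± 272 and 823 ± 53.4 in the CD25 arm.

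The inflammatory lists held 145 genes, of which 48 were bright, and of these 25 were higher and 23 lower with IL-1b, with a median of 0.003 log2 units (-0.043 with array medians centred). Brightness was averaged over all arrays, so some of the 48, such as Cebpd, passed through other arms. Their median response in AcP neurons was 0.228, and counts of bright inflammatory genes are a description only. Of all 133 on the array, 59 were higher and 62 lower in AcPb neurons, with a median of 0. The level of the 48 on single arrays, as a mean log2 difference from the control mean, was 0.013, 0.03 and 0.026 with IL-1b, against -0.008, 0.016 and -0.007 in controls. The bright members of some smaller lists stood apart, though the whole lists did so less. Of all 21 interferon response genes on the array 12 were higher and 8 lower, with a median of 0.047. Of all 16 acute phase and innate defence genes 7 were higher and 7 lower, with a median of 0. The 8 bright interferon response genes had a median of 0.172 and levels of 0.176, 0.226 and 0.157 with IL-1b, against 0.042, -0.035 and -0.007 in controls, and 3 of the 8 (37.5%) had all IL-1b arrays above all controls, against 9.64% of all bright genes. The 3 were Gbp3, an interferon-induced GTPase, at 0.35 ± 0.26, the transcription factor gene Irf9 at 0.14 ± 0.10 and Irgm1 at 0.20 ± 0.12. The 3 bright acute phase and innate defence genes were all higher, with a median of 0.362 and levels of 0.281, 0.288 and 0.307 with IL-1b, against -0.077, -0.034 and 0.112 in controls. Among them Ptx3, a secreted pattern recognition protein, read 116.5, 116.9 and 120.1 units with IL-1b, against 86.5, 93.7 and 81.1 in controls. These groups did not overlap, yet the change of 0.38 ± 0.28 was not called (limma adjusted p = 0.78), and in AcP neurons it was 3.40. In CD25 neurons the medians of the interferon and acute phase lists were -0.097 and -0.422. The 3 bright cytokine genes went the other way in AcPb neurons, all lower, with a median of -0.117, against 0.275 in CD25 neurons. Their levels in AcPb neurons were -0.318, -0.205 and -0.162 with IL-1b, against 0.113, -0.152 and 0.04 in controls. In the IL-1 receptor signalling list 6 of 10 bright genes were lower, with a median of -0.071 and changes from -0.651 to 0.148. In 3 of the 10 (30%) every IL-1b array lay below every control, against 16.4% of all bright genes. In 1 (10%) every IL-1b array lay above, against 9.64%. Tab2, an adaptor that links the receptor complex to the kinase TAK1, was higher by 0.15 ± 0.04. Irak1, a kinase recruited by MyD88, was at -0.16 ± 0.05. Neither passed limma's test (adjusted p = 0.26 and 0.36).

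Few single genes were called in AcPb neurons. Over all 45037 probe sets limma called 4 in AcPb neurons, or 0.00888%, the same number as in CD25 neurons, against 110 (0.244%) in AcP neurons. At an unadjusted p under 0.05 there were 4098 (9.1%) in AcPb neurons, against 2435 (5.41%) in CD25 neurons. The 4 called probe sets belonged to Peak1, 4930431P03Rik, Csmd3 and Ppcdc. Peak1, a pseudokinase that acts at the actin cytoskeleton and focal adhesions, read 82.05, 46.1 and 77.7 units with IL-1b, against 183.8, 175.4 and 161.2 in controls. The groups lay far apart on this probe set, and the gene fell by 1.19 ± 0.15 log2 units (limma adjusted p = 0.008). Its 4 other probe sets were dimmer, averaging at most 71.2 units, and none was called, with changes between -0.42 and 0. The Peak1 response was 0.05 in CD25 and 0.15 in AcP neurons. The difference from the AcP response passed the test (-1.34 ± 0.21, limma adjusted p = 0.0099), and the difference from the CD25 response did not (-1.24 ± 0.21, limma adjusted p = 0.077).

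Csmd3, which encodes a large membrane protein with CUB and sushi domains made in the brain, read 158.1, 147.9 and 139.3 units with IL-1b, against 208.5, 253.0 and 242.1 in controls. It fell by 0.61 ± 0.09 log2 units on this probe set (limma adjusted p = 0.04). Its other 2 probe sets were also without overlap, the brightest at -0.52 ± 0.11 (limma adjusted p = 0.16) and a dim one at -0.50 ± 0.18. In CD25 neurons the called probe set stood at -0.37, and the difference of -0.24 ± 0.12 did not pass the test (limma adjusted p = 0.62). Ppcdc, an enzyme gene of coenzyme A synthesis, read 21.65, 14.0 and 15.0 with IL-1b, against 40.4, 48.8 and 56.5 in controls, and fell by 0.97 ± 0.14 (limma adjusted p = 0.043). Its 2 brighter probe sets stood at -0.05 ± 0.14 and -0.10 ± 0.16. 4930431P03Rik, a gene of unknown role, read 58.6, 20.8 and 75.6 with IL-1b, against -12.5, -19.8 and -2.87 in controls, and rose (limma adjusted p = 0.008). The size of that rise, 1.98 log2 units, rests on the 16 added before the log, because every control array lay below 0.

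**Figure D2:**
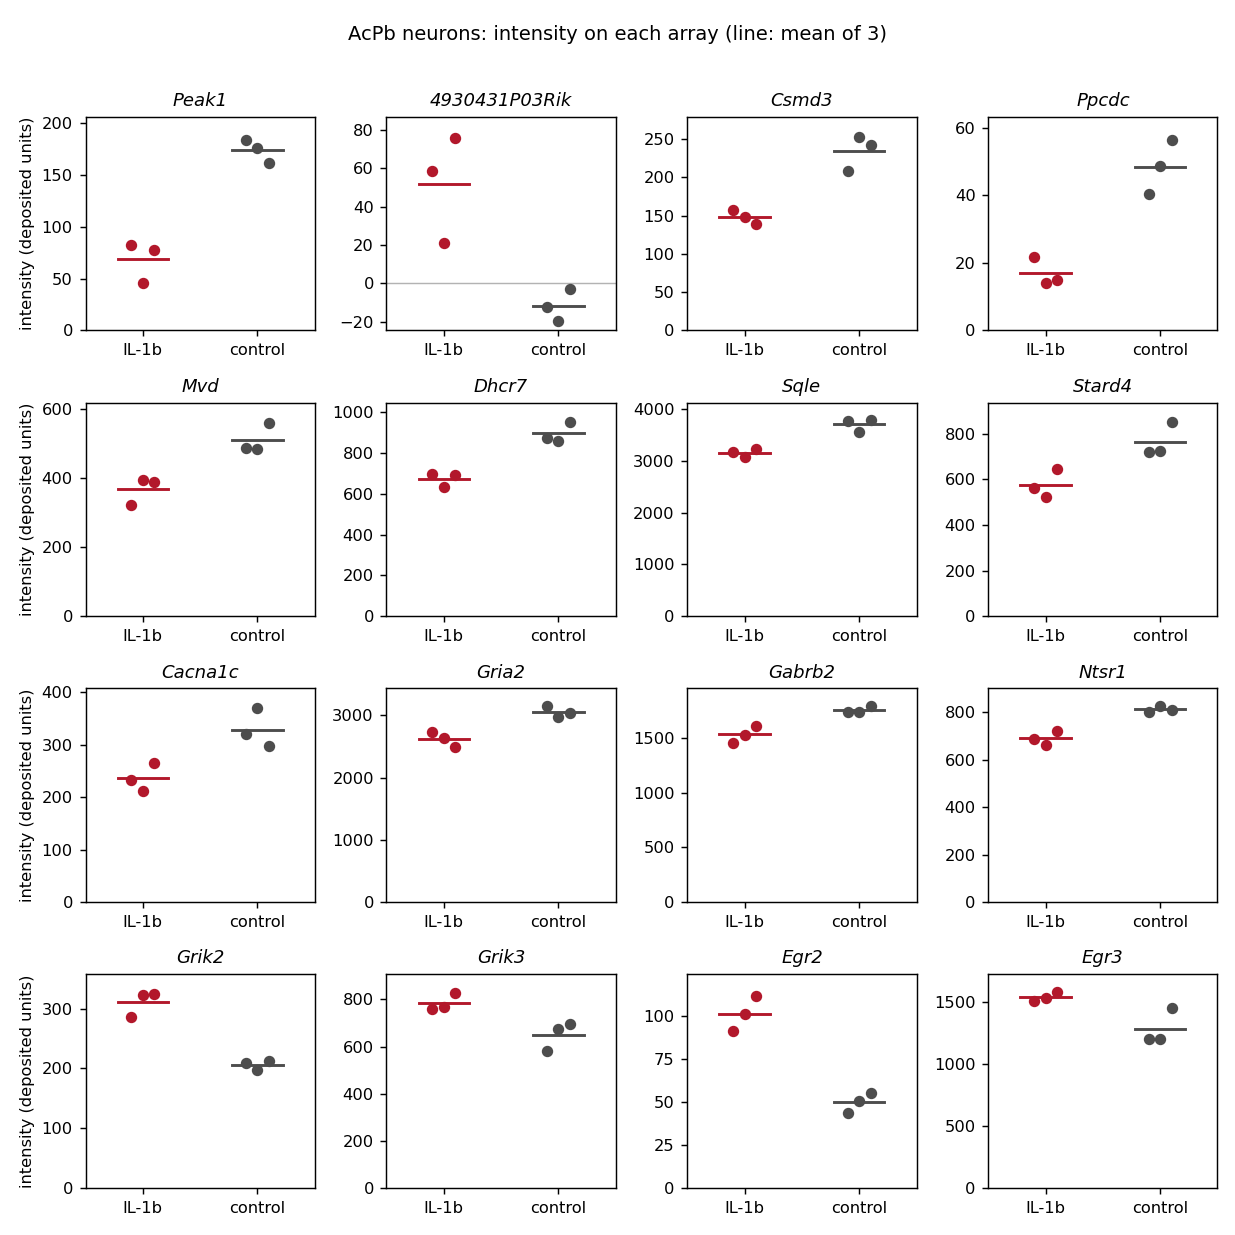
Intensity in deposited units (vertical axis) of 16 genes on each array of AcPb neurons, IL-1b left and control right, with a line at the mean of 3 arrays. The first row holds the 4 called genes, and in all 16 panels the IL-1b and control arrays do not overlap.

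Genes of neuronal signalling were lower on balance by a few percent, gene by gene below the threshold. The neuronal lists held 534 genes, of which 361 were bright, and of these 257 were lower and 104 higher with IL-1b, a share of 71.2% lower, against 56% of all 10170 bright genes. Their median was -0.065 log2 units, against -0.017 over all bright genes. In CD25 neurons 174 of the 361 (48.2%) were lower, against 47.2% of all bright genes, with a median of 0.005. On single arrays the level of the 361 was -0.06, -0.062 and -0.052 with IL-1b, against 0.006, 0.003 and -0.009 in controls. All 3 IL-1b arrays thus lay below all 3 controls by a margin larger than the spread within either group. Every other group of the series spread more widely on this scale. The values ran from -0.026, -0.02 and -0.003 in CD25 controls, the tightest, to 0.157, 0.008 and 0.115 in AcP controls, the widest. The mean AcPb shift of -0.058 is smaller than the spread of those AcP controls.

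In 115 of the 361 neuronal genes (31.9%) every IL-1b array lay below every control, against 16.4% of all bright genes, and in 17 every IL-1b array lay above, against 9.64%. In CD25 neurons 16 of the 361 (4.43%) lay wholly below, against 5.47% of all bright genes. At an unadjusted p under 0.05, 64 were lower and 10 higher in AcPb neurons, together 20.5%, against 12.7% of all bright genes (8.43% lower, 4.26% higher). limma called none of them after adjustment over all probe sets, and the smallest adjusted p was 0.15, of Ntsr1. With array weights 4 of the 361 were called, all lower: Gabrb2, Ntsr1, Trpv2 and Unc5a. With those weights 0.452% of all bright genes were called lower. The differences from the CD25 response were 49 lower and 16 higher at an unadjusted p under 0.05 (18%, against 14.1% of all bright genes), with 0 called by limma. How that 14.1% divides into lower and higher is not given here. At the same threshold all bright genes were 857 lower and 433 higher in AcPb neurons. In CD25 neurons they were 301 lower and 425 higher, so the split of the 361 is a description only.

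More bright genes were lower than higher in general, above all the brightest, and neuronal genes are bright. Over genes of 100 to 500 units the median was 0.011, over those of 500 to 2000 units -0.031 and over those of 2000 and more -0.036. The shares that were lower were 47.2%, 62.3% and 72.2% in these 3 classes, and those with every IL-1b array below every control were 10.2%, 21.2% and 26.6%. The mean intensity of the 361 neuronal genes had a median of 794.7 units. The part of brightness in the neuronal shift was not tested beyond these values.

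**Figure D3:**
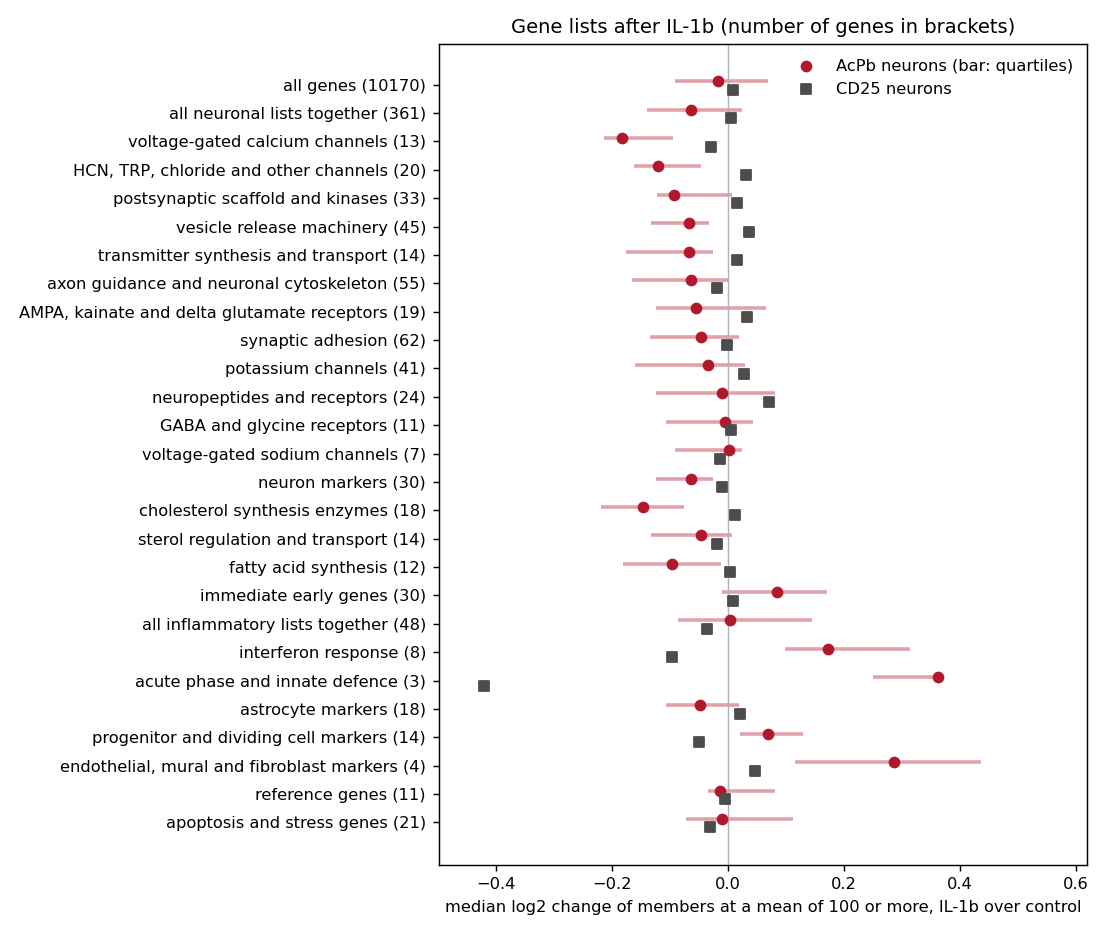
Median log2 change after IL-1b (horizontal axis) of the bright members of each gene list in AcPb neurons, with quartiles, and in CD25 neurons. Calcium channels (-0.183) and cholesterol enzymes (-0.147) lie farthest to the left in AcPb neurons, and acute phase (0.362), endothelial, mural and fibroblast (0.286) and interferon response genes (0.172) lie farthest to the right.

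Ion channels held the list with the lowest median. Of 13 bright subunits (18 listed) of voltage-gated calcium channels, which let calcium in on depolarisation and trigger transmitter release and gene expression, 12 were lower, and in 7 of the 13 (53.8%) no IL-1b array reached a control, against 16.4% of all bright genes. Their median was -0.183, against -0.029 in CD25 neurons, where 10 of the 13 were also lower but none was without overlap. Cacna1c, the pore of the L-type channel, read 233.5, 211 and 265.8 units with IL-1b, against 320.3, 368.9 and 296.9 in controls, a change of -0.45 ± 0.10 (limma adjusted p = 0.17). Its dimmer probe set stood at 0.08 ± 0.24. Cacna1b, the pore of the N-type channel that feeds release sites, was at -0.19 ± 0.06, and 2 of its other 3 probe sets were lower to the same degree, at -0.19 ± 0.05 and -0.22 ± 0.09. Cacna1e, the R-type pore, was at -0.31 ± 0.11. Cacna1a, the P/Q-type pore, was the exception at 0.04 ± 0.07.

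Potassium channels, which end the action potential and set excitability, were lower in 27 of 41 bright genes with a median of -0.035. Kcnq3, a subunit of the M-current, was at -0.19 ± 0.07 and its second probe set at -0.15 ± 0.04, but it stood at -0.21 in CD25 neurons too. The 7 bright sodium channel genes had a median of 0.001, which was -0.045 with array medians centred. Scn8a, a sodium channel of the axon initial segment, was at -0.19 ± 0.10, and its 3 further bright probe sets were lower without overlap too, at -0.14 ± 0.05, -0.58 ± 0.17 and -0.26 ± 0.10. Scn2a was at 0.04 ± 0.10 on its brightest probe set and at -0.18 ± 0.12 and -0.31 ± 0.10 on the next 2. Among 20 HCN, TRP, chloride and other channels 16 were lower, with a median of -0.121. Trpv2, a cation channel, read 172, 170 and 160.6 units with IL-1b, against 203.5, 203.4 and 213.1 in controls. The groups did not overlap, and the change was -0.28 ± 0.06 (limma adjusted p = 0.16, and 0.033 with array weights).

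Glutamate receptor genes stood on both sides of their control level. Gria2, the AMPA receptor subunit that keeps calcium out, read 2729, 2641 and 2493 units with IL-1b, against 3145, 2976 and 3031 in controls, at -0.22 ± 0.06 (limma adjusted p = 0.23). Its 2 dimmer probe sets did not share the direction, at 0.05 ± 0.08 and 0.09 ± 0.06. Cacng4, an auxiliary subunit of AMPA receptors, was at -0.24 ± 0.08 and Neto1, which associates with kainate receptors, at -0.14 ± 0.04. Of the 4 bright kainate receptor subunits 3 were higher and none was called. Grik2 read 285.3, 323.4 and 324.6 units with IL-1b, against 208.8, 197.9 and 212.4 in controls (0.56 ± 0.15, limma adjusted p = 0.23). Grik3 was at 0.27 ± 0.08 and Grik1 at 0.34 ± 0.13, each with all IL-1b arrays above all controls. Grik5 was at -0.15 ± 0.16 and the dim Grik4 at -0.13 ± 0.19. The dim second probe set of Grik2 stood at -0.16 ± 0.46. In CD25 neurons Grik2 was at -0.33, and the difference between the responses was 0.88 ± 0.21 (limma adjusted p = 0.24).

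The metabotropic receptor gene Grm3 read 653.3, 531.1 and 532.8 units with IL-1b, against 723.9, 696.2 and 745.6 in controls, at -0.33 ± 0.08 (limma adjusted p = 0.19). Grin2b, an NMDA receptor subunit, was at -0.19 ± 0.11 on its brightest probe set. Its further bright probe sets differed in size, at -0.04 ± 0.14 and, without overlap, at -0.60 ± 0.20. For the 11 bright GABA and glycine receptor genes the median was -0.006, and its sign depended on scaling (0.03 with quantile normalization, -0.052 with array medians centred). Gabrb2, a beta subunit of the GABA-A receptor, read 1460, 1534 and 1612 with IL-1b, against 1744, 1736 and 1794 in controls, at -0.19 ± 0.04 (limma adjusted p = 0.16, and 0.04 with array weights). Of its 4 other probe sets, 2 were lower without overlap, at -0.30 ± 0.09 and -0.41 ± 0.11, and the others stood at -0.04 ± 0.08 and 0.04 ± 0.27. Ntsr1, a receptor for the peptide neurotensin, read 685.4, 663.5 and 721.5 with IL-1b, against 799.6, 825.7 and 811.4 in controls, at -0.23 ± 0.05. Its response in CD25 neurons was 0.12, and the difference of -0.35 ± 0.07 did not pass limma's test (adjusted p = 0.15). Neuropeptide and receptor genes as a list, Ntsr1 included, were mixed, 11 of 24 higher and 13 lower. The somatostatin receptor gene Sstr1 was at -0.46 ± 0.17. The nociceptin receptor gene Oprl1 was at 0.37 ± 0.16 on its brightest probe set, and its further probe sets stood at -0.06 ± 0.15 and -0.17 ± 0.26. Receptors for acetylcholine, monoamines, purines and cannabinoids were 5 of 11 higher and 6 lower, among them the muscarinic receptor gene Chrm1 at 0.18 ± 0.09. Cnr1, the cannabinoid receptor of nerve terminals, was at 0.23 ± 0.12, and its dimmer probe set stood at -0.24 ± 0.31.

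On the presynaptic side, 36 of 45 bright genes of vesicle release were lower, with a median of -0.068, against 0.036 in CD25 neurons. Syn1, which tethers vesicles in reserve, read 2258, 1940 and 2269 units with IL-1b, against 2688, 2507 and 2599 in controls, at -0.27 ± 0.08 (limma adjusted p = 0.3). Syt1, the calcium sensor of release, was at -0.15 ± 0.06, the SNARE gene Stx1a at -0.22 ± 0.07 and Cadps, a priming factor, at -0.11 ± 0.03. Pclo, a scaffold of the active zone, was at -0.34 ± 0.09, but it was lower in the other arms too, at -0.40 in AcP and -0.15 in CD25 neurons, and its 2 further probe sets disagreed, at 0.30 ± 0.16 and -0.25 ± 0.14. The vesicular glutamate transporters Slc17a7 and Slc17a6 were at -0.27 ± 0.12 and -0.14 ± 0.05, whereas the GABA-synthesising enzyme gene Gad1 was at 0.04 ± 0.04.

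On the postsynaptic side, 24 of 33 bright scaffold and kinase genes were lower, with a median of -0.094, and in 15 of the 33 (45.5%) no IL-1b array reached a control, against 16.4% of all bright genes and 21.2% of those of 500 to 2000 units. Named members were Ppp3ca, the catalytic subunit of calcineurin, at -0.12 ± 0.04, Prkce at -0.12 ± 0.03 and Sipa1l1, a spine protein, at -0.14 ± 0.04. Further bright probe sets of Ppp3ca disagreed, at -0.08 ± 0.09 and 0.05 ± 0.03. Those of Prkce stood at -0.21 ± 0.08 and -0.18 ± 0.11, and that of Sipa1l1 at -0.20 ± 0.11. Of 62 synaptic adhesion genes 45 were lower, such as the neurexin gene Nrxn3 at -0.21 ± 0.06 and the receptor phosphatase gene Ptprd at -0.17 ± 0.05. On the other side, 7 of the 62 (11.3%) had every IL-1b array above every control, against 9.64% of all bright genes. Among these, Epha7, an ephrin receptor, was at 0.15 ± 0.04, Cbln4, a secreted synapse organiser, at 0.34 ± 0.12 and Nptx1, a pentraxin that clusters AMPA receptors, at 0.27 ± 0.11. The dimmer probe sets of Epha7 disagreed, at 0.05 ± 0.05, 0.19 ± 0.15 and -0.21 ± 0.14. On the last of them every IL-1b array lay below every control. Of 55 genes of axon guidance and the neuronal cytoskeleton 40 were lower. Unc5c, a netrin receptor, was at -0.30 ± 0.07 and its relative Unc5a at -0.44 ± 0.13 (limma adjusted p = 0.28, and 0.049 with array weights). The dimmer probe set of Unc5c stood at -0.05 ± 0.15. Ank3, which anchors channels at the axon initial segment, was at -0.21 ± 0.06, and its 3 further bright probe sets were all lower without overlap, at -0.23 ± 0.11, -0.32 ± 0.09 and -0.31 ± 0.11. The guidance receptor gene Nrp1 was higher by 0.35 ± 0.13 on its brightest probe set and stood at -0.05 ± 0.10 and -0.01 ± 0.08 on the next 2.

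General neuron markers were lower alongside these groups. Of 30 bright neuron markers 26 were lower (86.7%), 15 of them without overlap (50%), with a median of -0.065 against -0.011 in CD25 neurons. Over all genes of 2000 units and more, the class of the typical marker, 72.2% were lower and 26.6% without overlap. Their level was -0.068, -0.102 and -0.078 on the IL-1b arrays, against 0.006, -0.007 and 0.001 on the controls. In bulk RNA, fewer neurons and less of these transcripts per neuron cannot be told apart. The 18 astrocyte markers had levels of 0.039, -0.065 and -0.061 with IL-1b, against 0.114, -0.051 and -0.063 in controls, which overlap. The 14 progenitor and dividing cell markers, at 0.129, -0.014 and 0.086 with IL-1b against 0.029, -0.084 and 0.055 in controls, and the 7 oligodendrocyte markers, at 0.253, -0.184 and 0.135 against 0.152, -0.212 and 0.06, overlapped too. In both of these lists, however, each IL-1b array lay above the control array of the same number. Whether the numbers pair the samples is not given by the labels. The 4 bright endothelial, mural and fibroblast genes lay at 0.338, 0.174 and 0.286 with IL-1b, against -0.076, 0.07 and 0.006 in controls, without overlap. They included the muscle actin gene Acta2 at 0.54 ± 0.22, while the endothelial genes Pecam1, Cldn5 and Cdh5 were dim. The part of these cells in the neuronal shift was not tested. The 11 reference genes had a median of -0.014 (0.002 with quantile normalization).

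**Figure D4:**
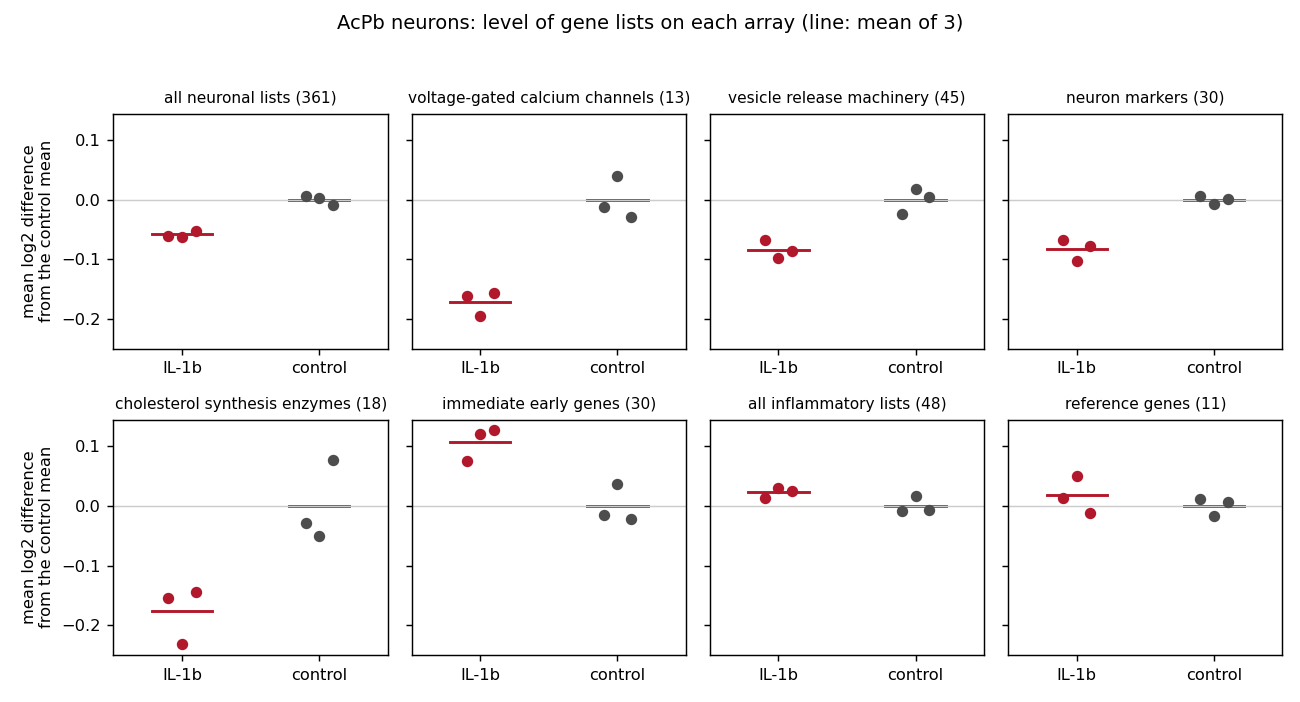
Level of 8 gene lists on each AcPb array, as the mean log2 difference of the bright members from their control mean (vertical axis), IL-1b left and control right, with a line at the mean of 3 arrays. IL-1b arrays lie apart from controls for neuronal genes, calcium channels, vesicle genes, neuron markers, cholesterol enzymes and immediate early genes, and overlap them for inflammatory and reference genes.

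Cholesterol synthesis enzymes were the other group with a low median. Neurons and glia make their own cholesterol, a main lipid of synaptic vesicles and membranes, and the factor SREBP, encoded by Srebf2, drives the enzymes together when membrane sterol is low. The list was drawn up after Mvd, Dhcr7 and Sqle had been seen near the top of this comparison, so its count is a description only. Of 18 bright enzymes (21 listed) 17 were lower and in 8 (44.4%) no IL-1b array reached a control, against 16.4% of all bright genes, with a median of -0.147, against 0.012 in CD25 neurons, where 5 of the 18 were lower. The enzymes' level was -0.154, -0.232 and -0.145 on the IL-1b arrays, against -0.028, -0.05 and 0.078 on the controls.

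Mvd, which makes isopentenyl diphosphate, read 321.1, 393.4 and 387.4 units with IL-1b, against 486.2, 484.1 and 560.6 in controls. Every IL-1b array lay below every control, and the change of -0.46 ± 0.07 missed the threshold (limma adjusted p = 0.086, and 0.019 with array weights). The second Mvd probe set was lower by less, at -0.26 ± 0.11. Dhcr7, which carries out the final reduction to cholesterol, read 695.9, 633.1 and 692.7 with IL-1b, against 875.9, 860.4 and 953.5 in controls, at -0.40 ± 0.07 (limma adjusted p = 0.13, and 0.025 with array weights). Sqle, the squalene epoxidase, read 3169, 3071 and 3239 with IL-1b, against 3771, 3560 and 3785 in controls, at -0.23 ± 0.05 (limma adjusted p = 0.14, and 0.028 with array weights). In CD25 neurons these 3 genes were at 0.08, 0.02 and 0.01. The differences between the responses, -0.54 ± 0.11, -0.43 ± 0.10 and -0.24 ± 0.06, were not called (limma adjusted p = 0.15, 0.25 and 0.29).

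Not all of the pathway shared the shift. Hmgcs1, an early enzyme, averaged 8215 ± 56.9 units with IL-1b and 8401 ± 265 in controls (SD, n = 3 each), at -0.03 ± 0.06, and Mvk stood at 0.02. Hsd17b7 was at -0.36 ± 0.09 on its brightest probe set and between -0.13 and 0.13 on the other 3. Msmo1 was at -0.38 ± 0.14. Among sterol regulators Srebf2 itself was at -0.29 ± 0.08 on its brightest probe set and -0.18 ± 0.05 on the other, and Stard4, which carries cholesterol between membranes, at -0.40 ± 0.08 with 2 further probe sets at -0.38 ± 0.11 and -0.33 ± 0.20. The lipoprotein receptor gene Vldlr and Apoe, a lipid carrier, both stood at 0.03. Of 12 bright fatty acid synthesis genes 10 were lower, with a median of -0.097, and Elovl6, a fatty acid elongase, was at -0.26 ± 0.06.

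The promoters of Mvd, the enzyme with the smallest p, and of Hmgcs1, which did not share the shift, are shown because members of the pathway stood lower together. They are the 250 bases before the transcription start, from RefSeq on GRCm38.p6, for Mvd chr8:122443423-122443672 on the minus strand and for Hmgcs1 chr13:119690101-119690350 on the plus strand. Capitals mark CCAAT on either strand (ATTGG on the other) and, in Hmgcs1, the sterol element TCACNCCAC.
Mvd: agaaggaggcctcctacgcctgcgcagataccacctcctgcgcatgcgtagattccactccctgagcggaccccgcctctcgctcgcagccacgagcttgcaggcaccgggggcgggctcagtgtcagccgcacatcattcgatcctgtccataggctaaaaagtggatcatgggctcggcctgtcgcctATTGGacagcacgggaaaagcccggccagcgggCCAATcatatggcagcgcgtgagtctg
Hmgcs1: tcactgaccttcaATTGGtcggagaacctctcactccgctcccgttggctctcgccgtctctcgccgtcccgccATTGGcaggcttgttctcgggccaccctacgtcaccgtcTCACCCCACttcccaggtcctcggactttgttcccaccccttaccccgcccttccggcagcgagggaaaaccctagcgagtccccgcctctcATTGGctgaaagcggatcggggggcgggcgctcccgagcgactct
Mvd holds CCAAT 2 times and no TCACNCCAC, and Hmgcs1 holds CCAAT 3 times and TCACNCCAC 1 time, and the motifs do not overlap. RefSeq promoters were matched for 15 of the 18 bright enzymes, of which 15 held CCAAT at some start and 1 held TCACNCCAC. Over all 8257 bright genes with a promoter the shares were 40.6% and 1.31%, and over all 32851 promoters 33.8% and 1.05%. CCAAT was searched after the Mvd sequence had been seen, and a match describes letters, not binding.

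Immediate early genes, which neurons switch on within minutes to hours of activity or growth factor signals, leaned upward. Of 30 bright members (40 listed) 21 were higher, 8 of them without overlap (26.7%, against 9.64% of all bright genes), with a median of 0.084, against 0.008 in CD25 neurons. The other arms with an accessory chain leaned upward too, with medians of 0.118 in AcP and 0.105 in AcP+AcPb neurons. There 5 and 7 of the 30 were lower. In AcPb neurons the level of the 30 was 0.075, 0.121 and 0.127 on the IL-1b arrays, against -0.015, 0.037 and -0.021 on the controls. Egr2, a zinc finger transcription factor, read 91.2, 101.1 and 111.7 units with IL-1b, against 43.85, 50.5 and 55.3 in controls, and every IL-1b array stood above every control. The change was 0.83 ± 0.20 (limma adjusted p = 0.19), its dimmer probe set was at 0.62 ± 0.20, and Egr2 was at -0.33 in CD25 and 2.21 in AcP neurons. Egr3 was at 0.26 ± 0.08. Fos, Egr1 and Nr4a1, the usual markers of recent activity, stood at 0.04, -0.02 and -0.02, and Homer1, a postsynaptic scaffold gene that activity induces in a short form, at -0.21 ± 0.06.

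Over all bright genes, those with the largest changes at an unadjusted p under 0.01 and without overlap were named by rule. Among the 10 that were higher were Cep43, a centrosome protein, at 0.63 ± 0.16, Armcx5 at 0.66 ± 0.15 and Dmxl1, which helps assemble the vacuolar proton pump, at 0.58 ± 0.17. Beside Egr2 and Grik2 above, others were Mamld1, Krtap31-1, Fbxo46 and Tdo2, at 0.55 to 0.81. Rad51ap1 was the last of the 10, at 0.73 to 1.04 over the alternative settings described below. Its dimmer probe sets stood between 0.03 and 0.20. Beside Peak1, the 10 that were lower included the peptidase gene Dpp9 at -1.20 ± 0.36, Pgap2, which remodels GPI anchors, at -0.75 ± 0.15, and Tsr3, a ribosome maturation factor, at -0.72 ± 0.19. Net1, an exchange factor for the GTPase RhoA, read 155.2, 142.1 and 121.3 units with IL-1b, against 276.5, 212.4 and 212.8 in controls. It was at -0.68 ± 0.19 in AcPb and 0.92 in AcP neurons, a difference of -1.60 ± 0.27 (limma adjusted p = 0.027). Plcd4, Nck1, Zfp748, Gm13889 and Gpr25 were at -0.76 to -0.54. Except for Peak1 none of these 20 was called, and further probe sets often disagreed: those of Pgap2 stood at 0.01 ± 0.07 and -0.08 ± 0.10, and that of Tsr3 at -0.02 ± 0.16.

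Agreement between probe sets of one gene gives a measure of firmness within the arrays. For 4321 genes with 2 bright probe sets the sign of the AcPb response was the same in 57.5%, and the changes correlated across genes at r = 0.146 and rho = 0.178, where genes are not independent replicates. Where the brighter probe set had an unadjusted p under 0.05, the sign was the same in 366 of 584 genes (62.7%), compared with 64.9% in CD25, 74.2% in AcP and 73.2% in AcP+AcPb neurons. Across the 10170 bright genes the AcPb response correlated with that of CD25 neurons at r = -0.207, with AcP at 0.142 and with AcP+AcPb at 0.321, all without shared arrays, and with no test since genes vary together. In AcP+AcPb neurons 232 of the 361 neuronal genes were also lower, with a median of -0.038, against 189 and -0.007 in AcP neurons.

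The number of calls depended on how the spread was estimated. It was 4 with 1 higher and 3 lower as reported, 130 with array weights (46 or 0.102% higher, 84 or 0.187% lower), 31 with only the 6 AcPb arrays in the fit (13 higher, 18 lower), 7 with a log that keeps values below 0 (0 higher, 7 lower) and 1 with 1 probe set per gene. Peak1 was called under 19 of 21 alternatives, with a log2 change between -1.38 and -0.85, and with only the 6 AcPb arrays in the fit it was not. 4930431P03Rik was called under 14 of 18, Csmd3 under 13 of 20 and Ppcdc under 10 of 19 that could test them. Csmd3 and Ppcdc each lost their call when AcPb control 2, AcPb control 3, IL-1b array 2 or IL-1b array 3 was left out, at limma adjusted p-values of up to 0.207 and 0.161 over all alternatives. The median of the 361 neuronal genes stayed between -0.111, with array medians centred, and -0.048, with quantile normalization, and leaving out single AcPb arrays gave -0.073 to -0.06. That of the cholesterol enzymes ranged from -0.206 to -0.102 when single arrays were left out, and that of immediate early genes from 0.038 with centred medians to 0.097.

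**Figure D5:**
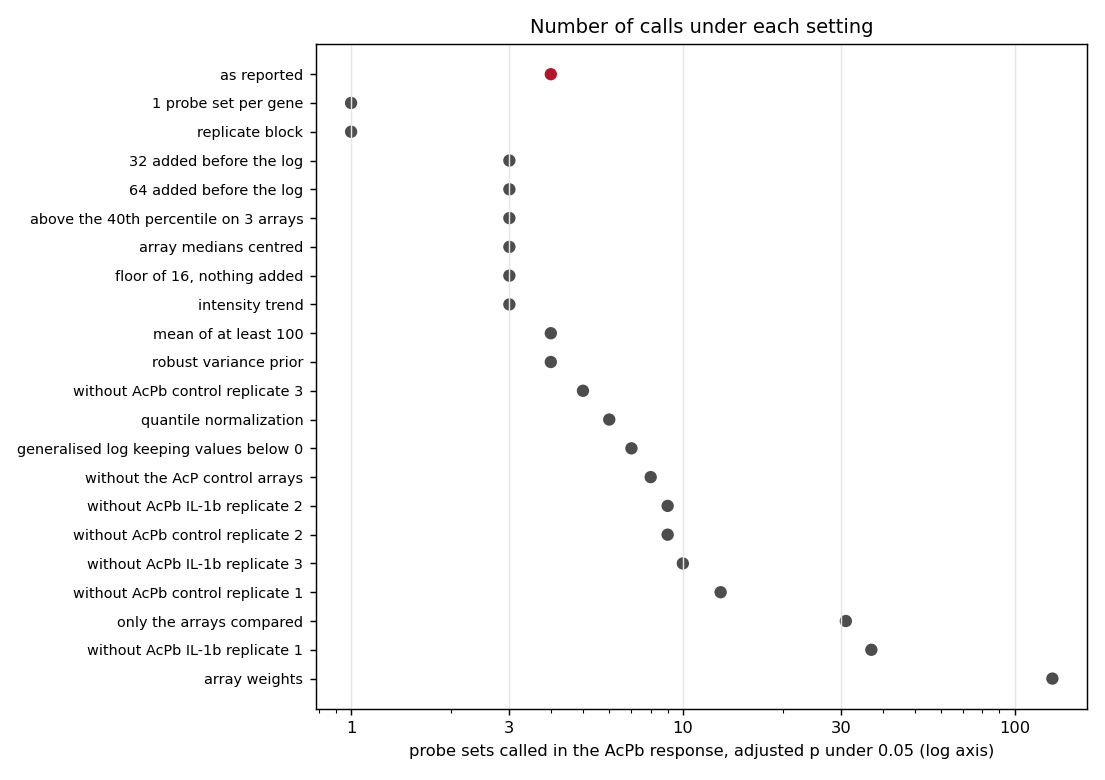
Number of probe sets called in AcPb neurons at an adjusted p under 0.05 (horizontal log axis) as reported and under each alternative. Counts run from 1 to 130, with array weights at the far end.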

How the data were processed

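The deposited values are linear probe set intensities of 24 one-colour Affymetrix arrays. The authors' summary and scaling method: not given in the sources used here. Between 16.4% and 18.2% of each array's values lay below 0. No detection calls were used, so dim and absent cannot be told apart, and precision is limited by having 3 arrays a group. Groups came from the labels.

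Values below 0 were set to 0, 16 was added and log2 taken. limma 3.58.1 (R 4.3.3, lmFit and eBayes) was fitted to 45037 probe sets, without 40 control probe sets, on all 24 arrays with 8 group means (16 residual and 0.653 prior degrees of freedom). P-values are two-sided, adjusted by Benjamini-Hochberg over all probe sets and called under 0.05. Of the probe sets 34945 had 1 gene symbol, 932 several and 9160 none in the supplied platform annotation. A gene was represented by its probe set with the highest mean over all arrays (18193 genes, of which 10170 averaged at least 100).

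The 34 gene lists (919 genes, 831 on the array) and the comparison itself were chosen with earlier results of these data known, and 3 lists on sterols and lipids after values of this comparison had been seen. Named were called probe sets, the 10 largest rises and falls among bright genes at an unadjusted p under 0.01 without overlap, up to 3 members on each side of every neuronal list by smallest p, 12 inflammatory genes and 5 receptor or control genes; other members are named as examples chosen after seeing values. Not every gene that the rule names is reported here. Alternatives changed the added value, floor, normalization, filter, arrays in the fit, weights, variance prior and replicate block. The fit was tested on simulated data.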

Additional observations from a re-analysis of the deposited data

Results flagged for a closer look

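Responses that differed between arms by limma's test of the difference (AcPb response minus the other response, log2) are given here as values. Against AcP neurons, the difference was -1.34 for Peak1 (limma adjusted p = 0.0099), 1.98 for 4930431P03Rik (0.029), a value that rests on the added 16, and -1.6 for Net1 (0.027). Among inflammatory genes, all named for their response in AcP neurons, it was -6.14 for Cxcl10, -4.86 for Tnfaip2, -4.63 for Cxcl1, -3.91 for Gbp2, -3.85 for Steap4, -3.51 for Ccl2, -3.26 for Cebpd, -3.12 for Lcn2, -3.07 for Icam1, -3 for Cxcl2, -2.88 for Nfkbiz and -0.91 for Nfkbia. The limma adjusted p of these 12 ran from 2.1e-06 for Tnfaip2 to 0.0071 for Lcn2.

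Against CD25 neurons limma called 1 difference, that of Gm15850, at -3.85 (adjusted p = 0.038), with 3911 probe sets at an unadjusted p under 0.05. The gene averaged -22.1 units with IL-1b and 46.1 in controls of the AcPb arm, and 46.6 with IL-1b and -13.1 in controls of the CD25 arm. The response in neither arm was called alone (limma adjusted p = 0.14 in AcPb and 0.19 in CD25 neurons), and the values on both sides lie near or below 0, so the size rests on the added 16.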

How the results depend on the processing

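Of the counts of calls under alternatives, 42 stayed within 1.5 times the reported count, 25 were larger and 7 smaller. The 4 calls of the AcPb response became 7 with a generalised log, 1 with 1 probe set per gene, 31 with only the 6 arrays compared, 130 with array weights, 8 without the AcP control arrays (an alternative chosen after seeing the data) and 5 to 37 when single AcPb arrays were left out: 13 without control 1, 9 without control 2, 5 without control 3, 37 without IL-1b array 1, 9 without IL-1b array 2 and 10 without IL-1b array 3. The 1 call of the difference from CD25 neurons became 0 with 64 added or a generalised log, 8 with quantile normalization, 3 each with centred medians, a mean of at least 100 or 1 probe set per gene, 21 each with only the 12 arrays compared or array weights, 43 without the AcP control arrays, and 0 to 26 when single arrays were left out. With the replicate block there was 1 call in the AcPb response, 1 in the difference from CD25 and 28, against 50, in the difference from AcP neurons. Deviations of same-numbered AcPb arrays correlated at 0.046, 0.129 and 0.004, and those of differently numbered ones at -0.118 to 0.078. These values cannot decide whether the numbers pair the samples, because a list of few genes can follow the number. The oligodendrocyte markers were highest on array 1 and lowest on array 2 in both AcPb groups. Peak1 was not called with the replicate block or with only the arrays compared, the 2 alternatives that ended its call. No count or named gene reversed its direction past the threshold. Of named genes 2405 values kept their side of the threshold, 7 gained and 22 lost a call, and 52 uncalled values changed sign. The cause of these changes was not tested. Dim genes, whose values lie near or below 0, have no reliable size on these arrays.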
